A study of Mus musculus with 68 samples.

Results

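The newborn neurons of the embryonic mouse cortex described here are 3 single E11 cells, named 30F, 32J and 43D. They were set against the 23 E11 cells typed as apical progenitors (APs), so that 26 of the 68 cells in the series were compared. All 26 were cells of CD1 mouse embryos at embryonic day E11, dissociated with trypsin from the dorso-lateral cerebral wall, picked at random under the microscope and hybridized, after amplification of each cell's cDNA, to 1 Affymetrix whole-genome mouse array per cell. The 3 E11 intermediate progenitors (IPs) 41G, 42M and 45O and the single E16 neuron of the series are set beside them, and the E11 cell 31i, named as low in quality, was left out. The types were assigned in the study by clustering these same arrays, and the cDNAs had been preselected by quantitative PCR as representing progenitors, so every difference below describes the classes and none was tested. Each cell is 1 array, with no embryo or litter given for it, so each type counts as 1 sample and the SD given is that between cells. The number in a cell's name is not explained. Only 1 neuron shares it with an AP (30F with 30L), so that anything it marks cannot be told apart from cell type for 32J and 43D.

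APs are bipolar cells that divide at the ventricular surface, keep Notch signalling active and express Sox and Pax transcription factors. Their daughters that leave the surface, directly or through IPs, stop dividing, switch on proneural bHLH factors such as those of the Neurog, Neurod and Nhlh families, and build a leading process and an axon from neuron-specific tubulins and microtubule-binding proteins. The first neurons of the cortex form the preplate, which holds the reelin-secreting Cajal-Retzius cells and the glutamatergic neurons of the future subplate and deep layers.

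Levels are log2 signals after quantile normalization of all 68 arrays. The signal of the phe spike, an RNA added at 20 copies per cell, had a median of 9.72 over the arrays on this scale, called the 20-copy signal here, and a gene is called detected in a cell at or above it. A limited difference is the mean of the 3 neurons minus the mean of the 23 APs after lower values were raised to the 20-copy signal, so that noise among undetected genes does not count. It understates the difference of a gene undetected in one type, and such a gene can differ in 1 direction only, so list medians are given over all members on the array, detected or not (0.00 over all 18194 genes), and list counts only describe. The spike itself read between 28.4 and 3898 on the linear scale in the 26 cells, around a 20-copy signal of 842, so that detection of a single transcript in a single cell is imprecise.

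The 3 marker genes of neurons separated the types, with 1 exception. Dcx, which encodes the microtubule-binding protein doublecortin of migrating neurons, had log2 signals of 12.80 in 30F, 13.33 in 32J and 12.30 in 43D, against a lowest, median and highest AP value of 0.03, 3.04 and 7.17. It was detected in all 3 neurons and in 0 of 23 APs, with a limited difference of 3.09, at least 8.53-fold. Tubb3, the neuronal β-tubulin, read 12.93, 13.41 and 13.51 in the neurons (13.28 ± 0.31, SD) and between 4.28 and 12.44 in the APs (10.12 ± 1.74, SD, median 10.36). The groups did not overlap, but 12 of 23 APs were above the 20-copy signal, so Tubb3 differed in amount rather than in presence. Stmn2, the neuronal stathmin that destabilizes microtubules in growth cones, was at 11.64 in 30F and 12.48 in 32J but at 5.38 in 43D, below the 20-copy signal, against 0.09, 1.44 and 4.13 in the APs. Its limited difference was 1.56, and 0.96 without 32J. The neuron 43D thus carried 2 of the 3 markers. The plot of neuron and AP genes in each cell shows these values beside those of the progenitor genes.

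**Figure D1:**
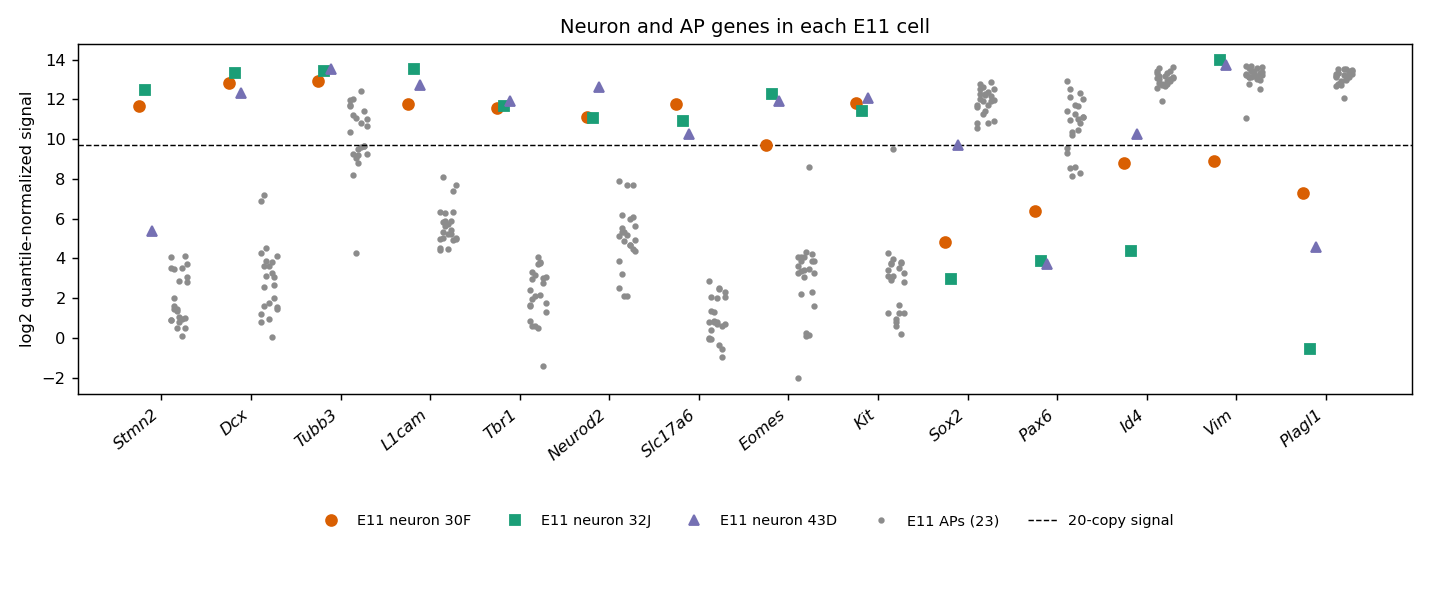
Log2 quantile-normalized signal (y axis) of 14 genes (x axis) in each of the 3 E11 neurons (coloured symbols) and each of the 23 E11 APs (grey points), with the 20-copy signal as a dashed line. Dcx, L1cam, Tbr1, Neurod2, Slc17a6 and Kit were detected in all 3 neurons and in 0 of 23 APs, and 43D had Stmn2 at 5.38.

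Across the genome the neurons differed from APs in both directions. Of 8485 genes detected in at least 1 of the 26 cells, 330 (3.89%) were higher in neurons by a limited difference of 1 or more and 376 (4.43%) were lower, around a median limited difference of -0.04. Leaving out 1 neuron gave more, with 472 higher and 417 lower without 30F, 496 and 415 without 32J, and 524 and 469 without 43D. All 3 neurons lay above all 23 APs for 83 genes (0.978%) and below all 23 for 33 genes (0.389%), and 63 (0.742%) and 30 (0.354%) of these were also past the fold, the term used below for a limited difference of 1 or more. The balance of the directions depended on the scaling. With signals scaled to another spike, lys (1000 copies per cell), 131 genes were higher and 631 lower, and after scaling to the trimmed mean of each array 580 were higher and 367 lower, so that higher genes made up 17.2% and 61.2% of those past the fold, against 46.7% here. The neuron arrays were also dimmer. Their trimmed mean signal per 1000 units of the lys spike was 13.6 to 17.6, against 13.2 to 72.0 (median 29.1) in APs, and 1769 to 2101 genes reached 20 copies after lys scaling, against 1853 to 3745 (median 3174). Against only the 5 APs that were dimmest on this measure, chosen after the data had been seen, 364 genes were higher and 428 lower.

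**Figure D2:**
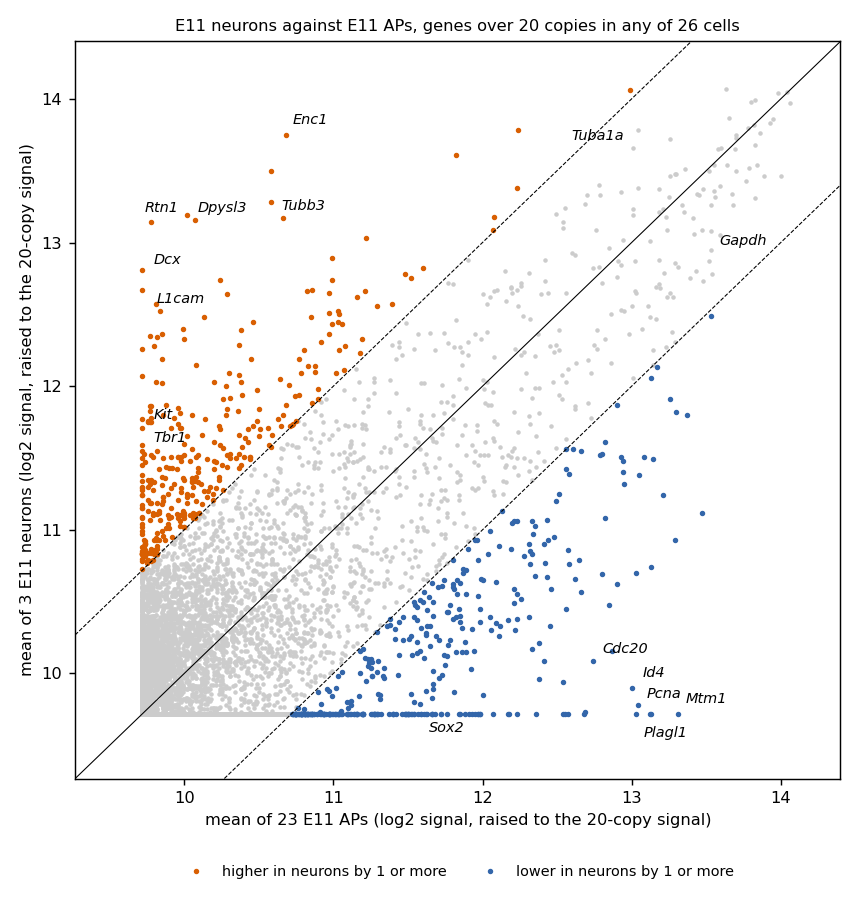
Mean limited log2 signal of the 3 E11 neurons (y axis) against that of the 23 E11 APs (x axis) for 8485 genes, 1 point per gene. Orange points (330) are higher in neurons by 1 or more and blue points (376) are lower, the solid line marks equality, and dashed lines mark a difference of 1.

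The 15 genes that were highest relative to APs had limited differences of 2.5 or more. Rtn1, a reticulon of the neuronal endoplasmic reticulum, came first, with 13.52, 13.29 and 12.60 in 30F, 32J and 43D against -0.11, 1.93 and 10.38 as the lowest, median and highest AP, a limited difference of 3.36. Every neuron lay above every AP, and 3 of 23 APs detected it. Dpysl3 (3.17) and Crmp1 (3.09), 2 members of the family of collapsin response mediators that transmit semaphorin signals to microtubules, were detected in 6 and 9 APs, and Enc1 (3.07), an actin-binding protein, in 13. L1cam, the adhesion molecule of growing axons, read 11.77, 13.52 and 12.71 in the neurons and no more than 8.10 in any AP, with a limited difference of 2.95. Dcx (3.09), described above, was also among the 15. Next came Rnd2 (2.92), a small GTPase of migrating cortical neurons, Mllt11 (2.77), Tubb3 (2.71) and the amyloid precursor-like gene Aplp1 (2.69). Soga3 (2.58), Ndrg4 (2.51), the microtubule crosslinker Mtcl1 (2.51) and, both at 2.5, D430019H16Rik and the transcription factor Sox11 made up the rest. Crmp1 and Mtcl1 varied least among the neurons, with means of 13.16 ± 0.10 and 12.36 ± 0.03 (SD). 7 of the 15 (Dpysl3, Enc1, Rnd2, Mllt11, Tubb3, Soga3 and Sox11) were also detected in 3 of 3 IPs. In the E16 neuron 12 of the 15 were also detected (Rtn1 13.54, Dcx 12.57, Crmp1 13.15), but Mtcl1 was at 2.31, Rnd2 at 8.18 and Soga3 at 9.37.

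The pan-neuronal list held 32 genes, of which 26 were detected in some cell. 17 were higher in neurons by 1 or more, 0 were lower, and the median limited difference over the 32 was 1.09. For 9 of them, found in neurons and in 0 of 23 APs, no other direction was possible. The number detected was 20 in 30F, 21 in 32J and 17 in 43D, against 3 to 8 in APs and 7 to 13 in IPs. Stmn3 (2.33), Map2 (2.01), Gng3 (1.72), Nsg2 (1.58) and Ina (1.31) were among them, and the RNA-binding gene Elavl3 read 12.22, 11.03 and 10.08 in the neurons (1.29). Not all members were in every neuron. Mapt, which encodes tau, was detected in 30F only (10.45), as was Gap43 (11.49), and Ina in 30F and 32J. The neurofilament genes Nefl and Nefm were in none of the 3 neurons, and Nefm was in 2 APs. The E16 neuron had Mapt at 12.29 and Nefm at 11.25 but Nefl at 2.77. After lys scaling 11 of the list were higher and 0 lower. Beside the counts of this and the following lists, 3.89% of all 8485 detected genes were higher and 4.43% lower by 1 or more.

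Of the list of axonal and dendritic microtubule genes, 23 were on the array, 10 were higher and 0 were lower (median 0.64, and 6 higher after lys scaling). Isotypes of one protein behaved unequally. Tubb2a read 12.01, 11.42 and 11.22 in the neurons against an AP median of 1.41 (limited difference 1.73), while Tubb5 was at 13.77, 13.65 and 13.56 against a median of 13.60 in APs (0.06). The growth-associated Basp1 (1.79), the kinesins Kif21b (1.98) and Kif5c (1.27) and the microtubule-guiding Nav1 (2.49) were higher. Tuba1a was above every AP in every neuron (13.71, 13.68 and 13.58, against a highest AP value of 13.28), although by only 0.64. Among 27 guidance genes the semaphorin receptor Plxna2 (10.35, 12.43 and 12.49, against an AP median of 3.35) and its partner Nrp1 (1.80, 11.12 and 11.66, limited difference 1.12) were past the fold, a count that was 1 after lys scaling, 4 without 30F and 1 without 32J. Synaptic genes were sparse. The numbers detected were 7, 6 and 5 of 19 in 30F, 32J and 43D, against 0 to 2 in APs and 2 to 4 in IPs. Syt1, the calcium sensor of vesicle release, was the 1 of 19 past the fold (11.64, 10.86 and 10.04 in neurons, limited difference 1.13). The count was 0 after lys scaling and 2 without 32J or without 43D, and the vesicle GTPase gene Rab3a just missed the fold (11.20, 10.46 and 10.37, against an AP median of 7.57, 0.95). None of 19 channel and receptor genes reached it (0 of 19), although Cacna2d1, a calcium channel subunit gene, was detected in all 3 neurons and 1 AP (10.70, 9.82 and 10.58). In the guidance, synaptic and channel lists 11, 11 and 5 genes were detected in some cell. With 3.89% of all 8485 detected genes higher, counts of 0 to 2 in lists of this size only describe.

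A set of 23 genes (0.271% of those tested) was detected in all 3 neurons and in 0 of 23 APs. Besides Dcx and L1cam it held the transcription factors of glutamatergic cortical neurons Tbr1 and Neurod2, the proneural-type factors Nhlh1 and Nhlh2, the vesicular glutamate transporter Slc17a6, the splicing factor Srrm4, the RNA-binding gene Elavl4, Syt1, the cerebellin Cbln2, the ephrin receptor Epha3 and the receptor tyrosine kinase Kit. Of the 23, 14 were also detected in at least 1 of the 3 IPs (Dcx, Tbr1, Nhlh2, Elavl4 and Srrm4 in 2, Neurod2, Nhlh1, Slc17a6 and Epha3 in 1), and 9 in none, Kit, L1cam, Syt1 and Cbln2 among them. The wider list of glutamatergic cortical genes had 21 members on the array, with 6 past the fold upwards, 0 downwards and a median of 0.17. Its counts per cell overlapped between types. 30F, 32J and 43D detected 9, 10 and 11 of the 21, against 3 to 10 in APs and 9, 4 and 12 in the IPs 41G, 42M and 45O. Tbr1 was level across the neurons, at 11.58, 11.65 and 11.90, against no more than 4.07 in any AP. Neurod2 read 11.10, 11.04 and 12.63 (highest AP 7.89), and Slc17a6 read 11.77, 10.90 and 10.25 (highest AP 2.88). Kit, which encodes the receptor for stem cell factor, read 11.83, 11.41 and 12.08, against a median of 3.11 and a highest value of 9.51 in APs. It read 0.47 in the E16 neuron. That neuron also lacked Slc17a6 (1.94), Cbln2 (2.89), Nhlh1 (3.11), Nhlh2 (0.68), Elavl4 (1.57) and Epha3 (2.31), while it had Dcx, L1cam (11.77), Neurod2 (11.26) and Srrm4 (12.18), and Tbr1 at 9.40, just below the 20-copy signal.

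Proneural bHLH factors bind E-boxes, and one of their preferred forms is CAGATG. The 250 bases before the RefSeq start were searched for these letters on both strands, counting a gene if any of its listed starts had a match. They were found for 9 of the 19 genes of this set of 23 that the RefSeq table lists (47.4%), against 16.3% of 27025 genes, and for 1 of 10 G1/S genes and 2 of 12 mitotic genes described below. Such a match is a description of the letters, not of binding. Other genes of the set, such as Tbr1, had no match. The windows of Neurod2 (chr11:98329646-98329895, minus strand), Nhlh1 (chr1:172057597-172057846, minus strand) and Slc17a6 (chr7:51624387-51624636, plus strand), from RefSeq on GRCm38.p6, are shown 5′ to 3′ as examples chosen among the 9 genes with a match, with the E-box in capitals.
Neurod2: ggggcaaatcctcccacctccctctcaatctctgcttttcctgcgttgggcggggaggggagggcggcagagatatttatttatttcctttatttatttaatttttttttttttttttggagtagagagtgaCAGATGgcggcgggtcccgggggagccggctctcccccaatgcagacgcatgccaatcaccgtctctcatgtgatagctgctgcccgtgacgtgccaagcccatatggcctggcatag
Nhlh1: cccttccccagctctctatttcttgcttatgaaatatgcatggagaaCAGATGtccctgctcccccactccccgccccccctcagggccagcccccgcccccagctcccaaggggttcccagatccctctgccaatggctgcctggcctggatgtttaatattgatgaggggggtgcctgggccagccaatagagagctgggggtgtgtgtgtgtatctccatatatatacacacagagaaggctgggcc
Slc17a6: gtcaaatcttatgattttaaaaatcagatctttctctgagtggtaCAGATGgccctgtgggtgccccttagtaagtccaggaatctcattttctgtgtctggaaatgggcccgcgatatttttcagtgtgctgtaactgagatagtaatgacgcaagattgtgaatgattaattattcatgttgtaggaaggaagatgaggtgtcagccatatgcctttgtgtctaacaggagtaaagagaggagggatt

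Some genes that mark the commitment of IPs were detected in the neurons. Of 18 listed genes, 6 were higher than in APs by 1 or more and 0 were lower (median 0.80). 30F detected 7, 32J 10 and 43D 10, against 0 to 8 in APs (median 1) and 14 to 15 in the 3 IPs. Eomes, the T-box factor that defines IPs, read 9.72 in 30F, just below the 20-copy signal, 12.26 in 32J and 11.93 in 43D, against no more than 8.57 in any AP, and 5.24 in the E16 neuron. Neurod1 followed the same order, with 9.04, 12.33 and 11.21, against a highest AP value of 8.28. Insm1 and Gadd45g ran the other way, at 11.12 and 11.42 in 30F but at 2.87 and -0.17 in 32J and 3.39 and 1.42 in 43D. Neurog2 was below the 20-copy signal in all 3 neurons (0.80, 2.89 and 9.63), while 8 of 23 APs and 3 of 3 IPs detected it.

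Notch signalling runs between ligands on differentiating cells and receptors on progenitors. Of 18 genes of the pathway list 1 was past the fold in each direction (median 0.00). These counts do not cover every gene named here. Dll1, Dll3 and Mfng were counted in the list of IP commitment, and Notch1 and Hes5 in that of APs and radial glia. The ligand gene Dll1 read 13.11 in 32J and 12.30 in 43D but 5.37 in 30F, against an AP median of 5.44, and 4 of 23 APs detected it (limited difference 1.74). Dll3 read 9.83, 12.26 and 9.26, against no more than 5.03 in any AP (0.88). Mfng, a glycosyltransferase that modifies Notch receptors, read 10.07, 12.02 and 12.03 (1.29), and the neuronal ligand Dner 11.78, 11.72 and 10.07, against an AP median of 1.47 (1.41, below 1 after lys scaling). Of the receptors, Notch3 was undetected in all 3 neurons (6.24, 2.46 and 4.54) and detected in 18 of 23 APs (-1.15), and Notch1 was undetected in the neurons and detected in 13 APs (-0.65). The targets Hes5 (-0.39) and Nrarp (-0.73) were in 0 of 3 neurons, and in 7 and 10 of 23 APs. Hey1 was detected in 2 of the 3, at 6.08, 12.21 and 11.47 against an AP median of 11.53.

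Several progenitor genes were lower in neurons. Of 25 genes on the list of APs and radial glia 9 were lower by 1 or more and 0 were higher (median -0.65), and 14 were found in APs and in 0 of 3 neurons. 30F detected 1 of the 25, 32J 3 and 43D 6, against 11 to 16 in APs. Sox2, which maintains neural progenitors, read 4.84, 2.96 and 9.72 in 30F, 32J and 43D, against 10.53, 11.96 and 12.89 as the lowest, median and highest AP, and Pax6, the dorsal progenitor factor, read 6.39, 3.87 and 3.71, against 8.14, 11.03 and 12.93. Every neuron lay below every AP for both. Sox3, the close relative of Sox2, was in 0 of 3 neurons and 19 of 23 APs (7.73, 3.36 and 5.31, against a median of 11.22), and the membrane protein gene Ttyh1 in 0 and 17 (3.35, 3.20 and 0.87, against 10.60). Id4, an inhibitor of bHLH factors, had a limited difference of -3.11 (8.77, 4.36 and 10.25 in neurons, 11.91 or more in APs), and Hmga2, a chromatin protein of young progenitors, -2.86. Several members differed between the neurons. Vim, the intermediate filament of radial glia, was at 8.90 in 30F but at 13.98 and 13.72 in 32J and 43D, above the highest AP value of 13.68. Prom1 read 2.35, 11.51 and 5.03 in 30F, 32J and 43D, and Mycn 2.18, 0.50 and 11.66.

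Some of the most strongly lower genes lay outside that list. Mtm1, which encodes a phosphoinositide phosphatase, led them, with 9.12, 7.18 and 9.32 in the neurons and 12.49, 13.37 and 13.86 as the lowest, median and highest AP, a limited difference of -3.59. Plagl1, an imprinted zinc-finger gene, read 7.28, -0.54 and 4.58, against 12.04 or more in every AP (-3.41). Anp32b (-3.31), a histone chaperone, the Hedgehog co-receptor Gas1 (-2.96), the secreted Wnt modulator Sfrp1 (-2.84), the purine-synthesis enzyme gene Paics (-2.72), Nucks1 (-2.64) and Dbi (-2.60) followed. A total of 14 genes (0.165%) were detected in 23 of 23 APs and in 0 of 3 neurons, among them Mtm1, Plagl1, Cks2, Anp32b, Gas1, H2ax, Ybx3, Rrm2, Hmgb2 and Skp2. In the E16 neuron some of the lower genes were present, with Ybx3 at 12.12 and Ldha at 12.24. Of the 30 genes named in both directions, 17 had further probe sets detected in some cell, 34 in all. Of these, 29 differed in the same direction by 0.1 or more, 18 of them by 1 or more, and 5 differed by less than 0.1, such as 1 each for Mtm1 and Id4 at 0.00. The other further set of Mtm1 was at -0.23, that of Plagl1 at -0.03, and those of Nucks1 between -0.18 and -0.01. The large differences of Mtm1, Plagl1 and Nucks1 thus rested on 1 probe set each.

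**Figure D3:**
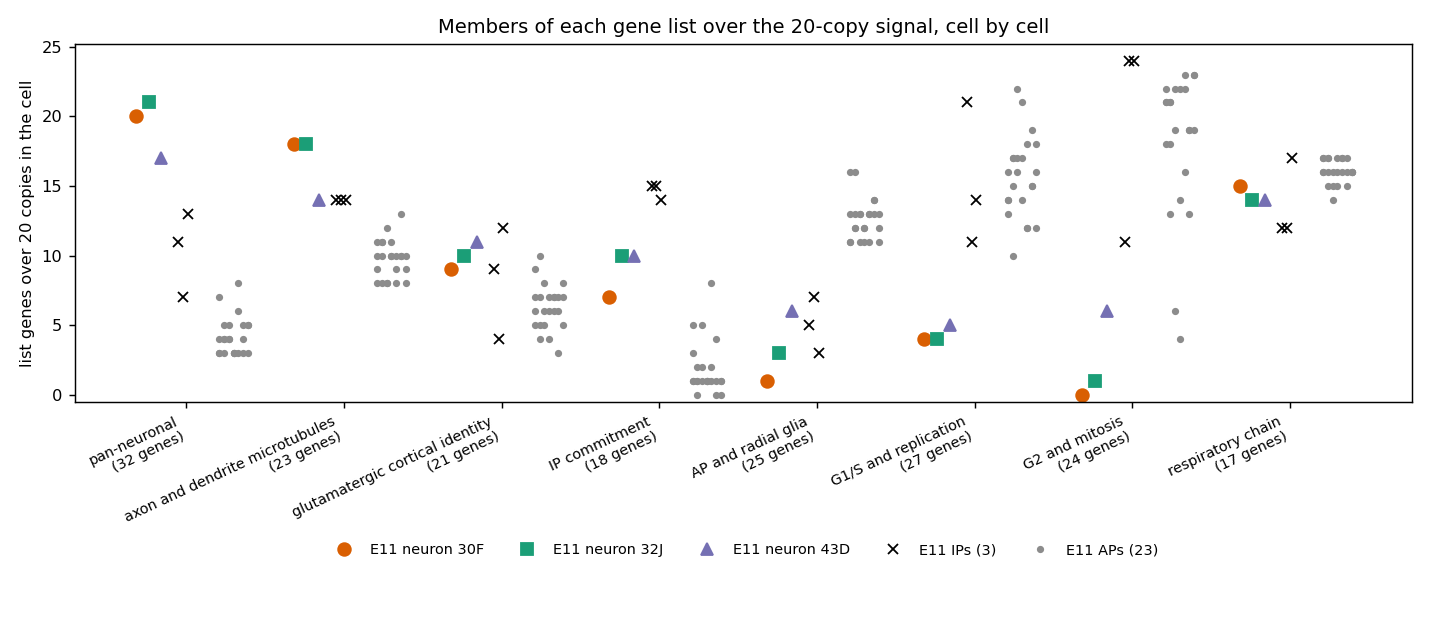
Number of list genes detected in a cell (y axis) for 8 gene lists (x axis, with the number of genes on the array), for each of the 3 E11 neurons (coloured symbols), the 3 E11 IPs (crosses) and the 23 E11 APs (grey points). 30F, 32J and 43D detected 0, 1 and 6 of 24 genes of G2 and mitosis, against 4 to 23 in APs, and the cell-cycle and progenitor lists run opposite to the neuronal ones.

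Among the lists, those of the cell cycle held the most lower genes. Of 27 G1/S and replication genes 13 were lower by 1 or more and 0 were higher (median -0.97). Of 24 genes of G2 and mitosis 15 were lower and 0 higher (median -1.37). In these lists 25 and 24 genes were detected in some cell, and 4.43% of all 8485 detected genes were lower. For 15 G1/S and 17 mitotic genes, found in APs and in 0 of 3 neurons, no other direction was possible. Pcna, the sliding clamp of replication, read 9.89, 3.92 and 6.72 in the neurons, against 12.11, 13.14 and 13.63 in the APs (-3.27). Rrm2 (-2.35), Mcm5 (-2.21), Mcm6 (-2.19) and the cyclin Ccnd1 (-2.14) were detected in 0 of 3 neurons, as was the licensing factor gene Cdt1 (4.88, 1.28 and 4.99, against a median of 11.99), whereas Mcm7 was at 10.49 and 11.85 in 30F and 32J. Ccnd2, another D-type cyclin, stayed at 11.38 in 30F and 11.39 in 32J and was at 3.22 in 43D, against 9.93 to 13.26 in APs. Mki67, the proliferation antigen, read 3.75, -0.44 and 2.21, against an AP median of 11.81, and Cdk1, Ccna2, Ccnb2, Aurkb and Plk1 were also below the 20-copy signal in every neuron. Cks2 (-3.40), a partner of the mitotic kinase Cdk1, and Cdc20 (-2.65), an activator of the anaphase-promoting complex, were with Pcna among the 15 lowest genes. Among genes of cell-cycle exit only Cdk5r1, the neuronal activator of the kinase Cdk5, was past the fold, with 10.28, 12.53 and 12.69 against an AP median of 3.52 (2.06), while Cdkn2d, which encodes an inhibitor of cyclin D kinases, was at 10.81, 11.70 and 3.36 (median AP 3.85, limited difference 0.92) and the inhibitor gene Cdkn1b was at 9.11, 9.97 and 9.57 (-0.03).

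The neuron 43D had transcripts of part of this programme. It detected 6 genes of G2 and mitosis, against 0 in 30F and 1 in 32J. Top2a was at 12.35 in 43D, against 7.96 and 5.72 in 30F and 32J, Ube2c at 12.65 against 8.97 and 3.24, Nusap1 at 12.06 against 4.89 and 4.12, and Ect2 at 11.13 against 2.40 and 0.78. Cdc20 (10.83) and Cenpf (10.65) were the others. These values of 43D lay within the range of APs, as the plot of cell-cycle genes shows for 5 of them. The replication genes Mcm3 (11.90) and Slbp (11.83), Mycn (11.66), Sox2 (9.72) and Id4 (10.25) were likewise highest in 43D among the neurons. Other replication and progenitor genes were not, with Pcna (9.89) and Dbi (10.40) highest in 30F and Prom1 (11.51) in 32J. The G1/S list was nearly level, with 4, 4 and 5 genes detected in 30F, 32J and 43D. The number of genes lower by 1 or more was 376 with all 3 neurons and 469 without 43D, but it also rose without 30F (417) and without 32J (415). Of the 23 APs, 2 also detected few genes of G2 and mitosis, 4 and 6 of 24.

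**Figure D4:**
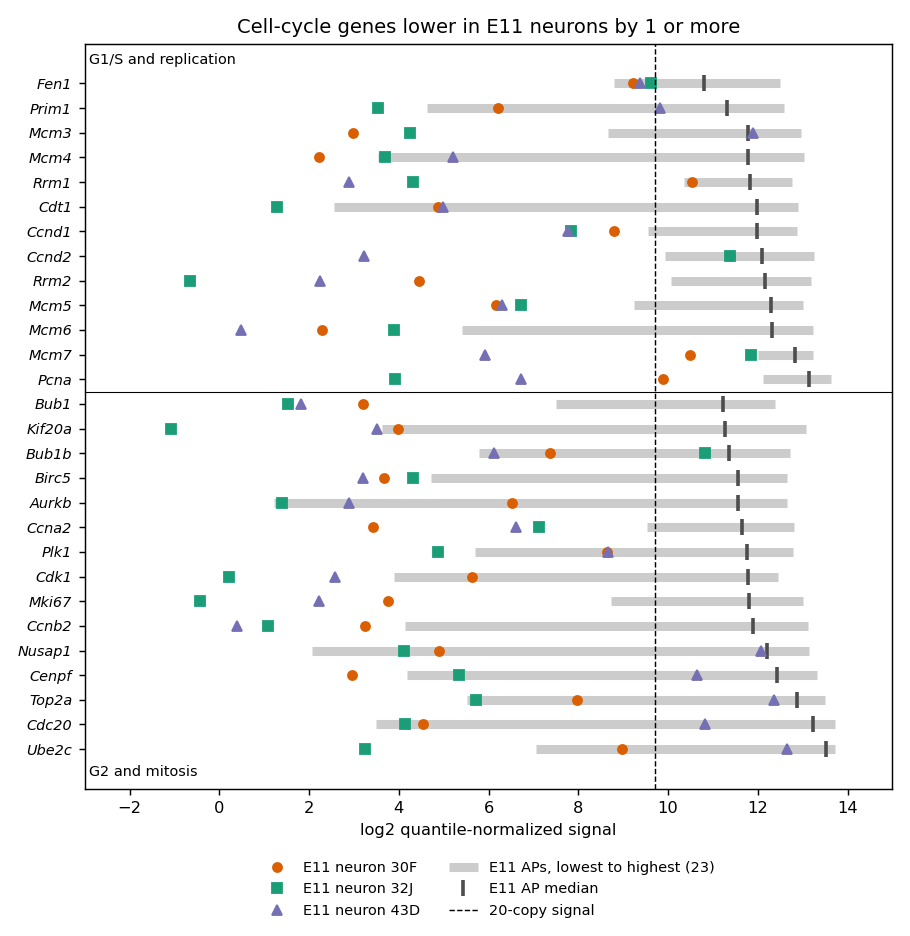
Log2 quantile-normalized signal (x axis) of the cell-cycle genes lower in neurons by 1 or more (13 of G1/S above the line, 15 of G2 and mitosis below it). Coloured symbols are the 3 E11 neurons, grey bars run from the lowest to the highest of the 23 E11 APs with the median as a tick, and the dashed line is the 20-copy signal. Top2a, Ube2c, Nusap1, Cenpf and Cdc20 of 43D lie above the 20-copy signal.

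Cell-cycle promoters are known to carry sites for E2F factors (GCGGGAA was searched) in G1/S genes and a cell-cycle homology region (CHR, TTTGAA) in genes of G2 and mitosis. In the same 250-base windows on both strands, GCGGGAA was found for 3 of the 10 listed among the 13 G1/S genes lower in neurons (30.0%), against 4.38% of all 27025 genes, and for 0 of 12 mitotic genes and 0 of 19 of the neuronal set. TTTGAA was found for 6 of the 12 listed among the 15 mitotic genes, against 18.3% of all genes, and for 1 of 10 G1/S genes and 4 of 19 of the neuronal set. The windows of Mcm7 (chr5:138171884-138172133, minus strand, E2F letters in capitals), Cdc20 (chr4:118437344-118437593, minus strand) and Ube2c (chr2:164769679-164769928, plus strand, both with the CHR letters in capitals) are shown as the cell-cycle counterpart of the neuronal windows above.
Mcm7: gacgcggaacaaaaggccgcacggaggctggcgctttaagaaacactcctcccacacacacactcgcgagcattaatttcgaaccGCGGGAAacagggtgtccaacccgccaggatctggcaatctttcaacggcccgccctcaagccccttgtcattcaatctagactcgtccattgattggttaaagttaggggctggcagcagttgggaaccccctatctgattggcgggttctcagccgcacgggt
Cdc20: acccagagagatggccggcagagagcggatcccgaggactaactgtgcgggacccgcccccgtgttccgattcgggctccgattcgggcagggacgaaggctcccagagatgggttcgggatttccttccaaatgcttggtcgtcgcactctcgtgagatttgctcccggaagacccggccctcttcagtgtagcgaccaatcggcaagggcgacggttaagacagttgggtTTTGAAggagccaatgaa
Ube2c: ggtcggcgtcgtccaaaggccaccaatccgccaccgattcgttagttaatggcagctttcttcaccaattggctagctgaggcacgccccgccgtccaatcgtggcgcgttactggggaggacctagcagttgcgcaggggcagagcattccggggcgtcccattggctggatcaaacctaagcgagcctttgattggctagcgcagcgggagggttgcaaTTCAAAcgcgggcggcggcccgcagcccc

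Among regulators of splicing and chromatin few genes were past the fold. Of 22 genes of neuronal RNA regulation 3 were higher and 1 was lower (median 0.00, and 2 higher and 3 lower after lys scaling). Of 13 BAF genes 1 was higher and 0 lower (median 0.00). In these 2 lists 16 and 11 genes were detected in some cell. Of all 8485 genes so detected, 3.89% were higher and 4.43% lower. Ptbp1, the splicing repressor of non-neuronal cells, was detected in 23 of 23 APs (10.11 or more) but read 3.89 in 30F and 3.23 in 43D, with 11.19 in 32J (-2.17), while its paralogue Ptbp2 was detected in all 3 neurons and 22 APs (-0.63). Srrm4, which promotes neuronal microexons, read 12.01, 11.45 and 10.88 in the neurons and was in 0 of 23 APs (1.73), and Celf2 was higher by 1.76. For the BAF chromatin complex, whose subunits are exchanged when progenitors become neurons, the neuronal subunit gene Actl6b was at 9.28, 10.57 and 10.19, against no more than 4.81 in any AP (0.44), and its progenitor counterpart Actl6a at 11.54, 10.84 and 5.12, against an AP median of 11.15 (-0.45). The ATPase gene Smarca4 was higher (12.56, 13.29 and 12.09, against 5.65 to 12.71 in APs, 1.67).

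Growth and energy genes differed less. Of 20 ribosome biogenesis genes 6 were lower by 1 or more and 0 higher (median -0.58), among them Npm1 (9.91, 11.61 and 11.83 in neurons, 12.75 or more in every AP, -2.35), the nucleolar gene Ncl (0.22, -0.75 and -0.09, against a median of 11.24) and Nop56 (-1.61). Of 15 glycolysis genes 4 were lower (median -0.45). Ldha, which makes lactate, read 9.76, 8.26 and 4.11, against 10.50, 12.88 and 13.64 in APs (-2.96), whereas Ldhb read 12.21, 10.49 and 12.50, against a median of 12.05 (-0.14). Pgk1 (-1.65), Pgam1 (-1.52) and Tpi1 (-1.37) were the others. Of 17 respiratory chain genes 3 were lower (Uqcrb at 12.79, 5.86 and 9.54 against a median of 13.37, Sdhb and Cycs), and the sign of their median turned with the scaling (-0.14 here, -0.62 after lys scaling and 0.27 after trimmed-mean scaling). All 8 housekeeping genes were within the fold, with Eef1a1 at 14.09, 13.94 and 13.93 in neurons against a median of 13.81 in APs.

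The 3 neurons shared some genes of glutamatergic cortical neurons but differed in other identity genes. Tbr1, Neurod2, Slc17a6, Nhlh2 and Bcl11b (11.78, 12.81 and 12.61, against an AP median of 4.22) were in all 3. Of 25 Cajal-Retzius and preplate genes on the array each neuron detected 5, against 0 to 3 in APs and 2 to 4 in IPs. They were not the same 5 in each neuron. Tmem163, a zinc transporter gene, was in all 3 (12.30, 10.89 and 11.24, against an AP median of 1.93). The Cajal-Retzius gene Reln, which encodes the secreted protein reelin, was at 13.32 in 30F and 13.17 in 43D but at 4.23 in 32J, against no more than 9.51 in any AP. 30F also carried the Cajal-Retzius markers Lhx5 (12.34) and Calb2 (11.67), which were at 3.52 and 2.15 in 32J and at 4.43 and 2.19 in 43D. Trp73, Lhx1, Calb1, Ebf3, Lhx9, Ndnf and Barhl2 were undetected in all 3 neurons. At the same time 30F had the highest level among these cells of Fezf2 (13.57), a determinant of deep-layer neurons, and of Emx1 (12.70). Both were undetected in 32J and 43D, and detected in 16 and 6 of 23 APs.

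How many genes each pair of neurons shared was not counted. Stmn2, Ina and Ncam1 were in 30F and 32J only, and Reln, Scg3 and Lzts1 in 30F and 43D only. Other genes paired 32J with 43D. Nr2f1 (10.53 and 12.03, against 2.94 in 30F) and Emx2 (11.49 and 12.21, against 4.37), both factors of cortical area patterning, Nfib (13.48 and 13.50, against 4.84), the semaphorin receptor Nrp1 (11.12 and 11.66, against 1.80), the somatostatin receptor gene Sstr2 and Dll1 were detected in these and not in 30F. Of these, Emx2, Nfib and Nr2f1 were also detected in 21, 19 and 15 of 23 APs, Dll1 in 4, and Nrp1 and Sstr2 in none. 32J alone had Ebf2 (11.98), a factor of early preplate neurons, and 43D alone had Neurod6 (10.77), which reached 13.52 in the E16 neuron, and Nfia (13.22, with 14 of 23 APs). Neuronal genes of the lists were also divided between the cells, in either direction. Snap25 (11.71), Syt4 (11.08) and Grin2b (11.37) were in 30F and in neither of the others, Gria2 (11.56), Rbfox3 (11.34), Kif1a (11.55) and Syp (9.97) were in 32J alone, and Chga was in 32J (10.45) and 43D (11.07) but at 2.61 in 30F.

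**Figure D5:**
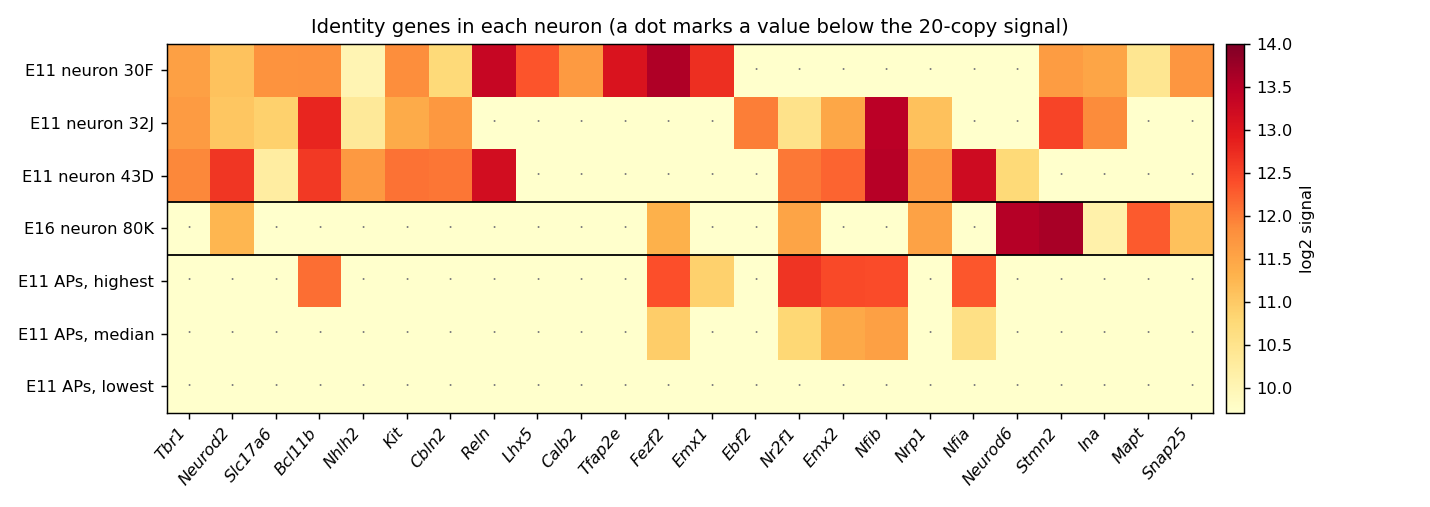
Log2 signal (colour, from the 20-copy signal upwards) of 24 identity genes (columns) in the 3 E11 neurons, the E16 neuron and the highest, median and lowest of the 23 E11 APs (rows). Dots mark values below the 20-copy signal, and 30F, 32J and 43D share Tbr1, Neurod2, Slc17a6, Bcl11b, Nhlh2, Kit and Cbln2 but not the genes to their right.

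Of all 8485 genes detected in some cell, 2581 were detected in exactly 1 of the 3 neurons and 839 in all 3. Detection in 1 neuron alone was thus common. Genes detected in a single neuron and in at most 1 AP numbered 241 in 30F, 234 in 32J and 180 in 43D. In 30F they were led by the transcription factor gene Tfap2e (13.06, against 1.16 and -0.20 in 32J and 43D), the kinase gene Sgk1 (12.65), Kcp (12.56), the microtubule stabilizer Map6 (12.47, with 9.72 in 32J just below the 20-copy signal) and the POU factor Pou3f1 (12.38, and 12.21 in the E16 neuron). In 32J they were led by Ackr1 (13.03), the immediate early gene Egr1 (12.30), Chst8 (12.21), Rgl1 (12.20) and Socs7 (12.16). Of the list of stress and immediate early genes 32J detected 4 (Egr1, Jun, Ier2 and Trp53inp1), against only Trp53inp1 in 30F and 43D and 0 to 2 genes in APs, and the part of such a state in the other genes of 32J was not tested. In 43D the leading genes were the acid-sensing channel gene Asic1 (12.37), 1500015A07Rik (12.20), Cdadc1 (12.19), Sez6l (12.11) and the adhesion gene Flrt1 (11.93). With 1 cell each, a kind of neuron and the state of 1 cell cannot be told apart.

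Markers of other cell types were not detected in the neurons. Of 16 GABAergic genes on the array (Gad1, Gad2 and the Dlx genes among those listed) 0 were detected in any neuron, as were 0 of 7 microglial, 0 of 7 vessel and 0 of 8 mesenchymal genes. Of 5 blood genes 0 were detected in the neurons and 4 in 1 AP, 42P, with Hbb-bh1 at 13.85, and without this AP 333 genes were higher and 385 lower.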

How the data were processed

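The authors deposited 1 signal per probe set and cell on a linear intensity scale, made with MAS5 per the submitters' processing notes from cDNA amplified with a bias to the 3′ end. The study's methods also name quantile normalization, but trimmed means of the deposited arrays ran between 67.4 and 298 in APs, so the deposited values are not at a common scale. All 68 arrays were quantile normalized together and log2 transformed with no offset (Python 3.11.15, numpy 2.4.6, pandas 2.3.3; figures with matplotlib 3.10.9). Of 45101 probe sets, 35890 are in the platform's gene table, 34958 with 1 symbol and 932 with several, which were not named. Where a gene had several probe sets the one of highest average signal in the 68 cells stood for it, giving 18194 genes, and 8485 were over the 20-copy signal in at least 1 of the 26 cells. Columns of other samples numbered 0, and no 2 arrays held identical values (0 pairs). A difference was called past the fold at a limited log2 difference of 1. The number of arrays limits the precision, and no test was run.

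The genes named were the 15 with the largest limited difference in each direction whose 3 neurons all lay on one side of the AP median, the 3 markers, list members past the fold or defining a list, and 5 genes of each single neuron; others were named after their values had been seen. The members, lists and rule were chosen with earlier results of these data known. Types of the cells follow the study's own clustering. Scalings, floors, probe rules and left-out cells were tried as alternatives. List genes not on the array were not analysed here.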

Additional observations from a re-analysis of the deposited data

How the results depend on the processing

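Set against 330 higher and 376 lower genes, the counts past the fold were 2177 and 3859 with plain log2 values (median difference over all genes -0.72), and 105 and 132 with values raised to 2 times the 20-copy signal. Scaling to the lys spike gave 131 and 631, trimmed-mean scaling 580 and 367, medians over cells 560 and 560, the mean over all probe sets of a gene 142 and 151, and a limited difference of 2 in place of 1 gave 33 and 46. Leaving out each neuron in turn gave 472 to 524 higher and 415 to 469 lower genes. Without filter, with 31i kept, with the E11 and E16 arrays normalized alone, and, chosen after seeing the data, without 30L, without 42P or against the 5 dimmest APs alone, counts stayed within 1.5 times. For list medians the starting values here were those over detected members only (pan-neuronal 1.29, against 1.09 over all members). Recalculated list medians moved from these by less than the SD between neurons in 213 cases and by more in 97. Of 46 named genes 46 had the same direction under both other scalings, 31 with medians over cells, 37 with all probe sets averaged and 41 without any 1 neuron. Of 33 past the fold, 14 were inside it with all probe sets averaged (Dcx and L1cam 0.00, Mtm1 -0.07), and lys scaling left Tfap2e at 0.98 and Ackr1 at 0.93. Genes of a single neuron depended on it. Ackr1 lay between -0.02 (without 32J) and 1.63 (without 30F), and Tfap2e was at 0.00 without 30F. With 3 neurons, and spikes that varied between cells, the absence of 1 transcript from 1 cell is not firmly measured.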
